A study of Mus musculus with 4 samples.

Results

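The genes encoding the subunits and assembly factors of the proteasome were followed in sorted cochlear hair cells and non-hair cells, with and without gentamicin. They were chosen by symbol alone, as every gene of the deposited tables named Psma to Psmg with a number, which gave 49 of 23420 genes. Cochleae of postnatal day 1 CD1 mice had been cultured, all of them carrying an Atoh1-GFP transgene in which an enhancer of the hair cell transcription factor Atoh1 drives the fluorescent protein. After a night in culture, organs were either left untreated or kept in 0.5 mM gentamicin, an aminoglycoside antibiotic toxic to hair cells, for 3 h, and were then dissociated and sorted. GFP-positive cells are called hair cells and GFP-negative cells non-hair cells, and each population was sequenced as polyA RNA in 3 control and 3 treated replicates. Cells with weak GFP were gated out. The non-hair cells are a mixture of supporting cells, cells of the epithelial ridges and surrounding tissue, so a level in that population is an average over many cell types.

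The proteasome degrades proteins tagged with ubiquitin. Its 20S core is a barrel of alpha and beta rings with the proteolytic sites inside, and the 19S regulatory particle, made of a ring of ATPases and a set of non-ATPase subunits, binds the tagged protein, removes the ubiquitin and threads the chain into the core. Dedicated chaperones build both parts and are not in the finished particle. Under interferon the catalytic beta subunits are replaced by immunoproteasome subunits, and other caps such as PA28 and PA200 can take the place of the regulatory particle.

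The 49 genes comprised 14 core genes (Psma1 to Psma7 and Psmb1 to Psmb7), 17 genes of the regulatory particle (6 ATPases, Psmc1 to Psmc6, and 11 non-ATPases), 7 assembly chaperones (Psmg1 to Psmg4, Psmd5, Psmd9 and Psmd10), 3 immunoproteasome subunits, 4 activators, the thymoproteasome subunit Psmb11, the inhibitor Psmf1 and the testis-specific Psma8. The symbol rule also caught Psmc3ip, which encodes a meiotic recombination factor and no proteasome protein. Psma8 was near background, with scores from 1.08 to 1.77, and was the only gene of the 49 not tested, so 48 were. Counts over the 48 or 49 genes, called proteasome genes here, include Psmc3ip. Each replicate held 22395037 to 28146016 reads on genes as recovered from the tables, and a gene needed at least 100 reads over the 12 replicates to be tested, as 16076 genes did. Values are the deposited normalized read scores, in which reads are scaled per replicate and 1 is added. Tests are limma fits to the log2 scores of all tested genes, and a gene is called changed at a Benjamini-Hochberg adjusted p under 0.05 over these genes. All 6 hair cell markers examined (Atoh1, Pou4f3, Myo7a, Myo6, Gfi1 and Otof) were higher in untreated hair cells than in untreated non-hair cells, by 4.45 to 9.85 on the log2 scale.

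Proteasome genes had a median mean score of 76.4 in control hair cells, but some had few reads. Psmb8 and Psmb9 had 6 to 20 reads in each hair cell replicate, and Psmb11 had 42 to 97 in each replicate of the 4 groups. On a scale that divides the score by transcript length, core genes stood highest in control hair cells (median 80.3 per kb, from 31.9 for Psma2 to 120.0 for Psmb4), followed by the regulatory particle (55.7 per kb, from 16.6 for Psmd11 to 100.1 for Psmc1). Assembly chaperones stood lowest of the 3 classes, at a median of 14.2 per kb and at most 19.9 for Psmg1. Control non-hair cells gave the same order, with medians of 80.3, 50.6 and 11.2 per kb. The levels per kb take, for each gene, the longest of the transcripts that the annotation marks as principal, so they carry the error of that choice.

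In hair cells, 3 h of gentamicin raised 5 proteasome genes, all of them in the regulatory particle, and lowered 1. The 5 that rose were Psmd6, Psmc2, Psmd12, Psmd14 and Psmd7, with log2 fold changes of 0.18 to 0.34, and the one that fell was Psmb11. None of the 14 core genes and none of the 7 assembly chaperones passed the test. Among all tested genes 14.8% rose and 18.4% fell, against 10.4% and 2.08% of the proteasome genes, so the set as a whole was called no more often than genes at large. Within the regulatory particle 5 of 17 genes (29.4%) rose and 0 fell. In sorted pools of cells, a change in the cells sampled and a change in RNA per cell cannot be told apart.

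Psmd12, a scaffold subunit of the lid of the regulatory particle, scored 71.2, 69.1 and 68.9 in hair cells without drug and 85.6, 89.7 and 84.2 after gentamicin. The treated values all lay above the controls and far outside their spread, and the log2 fold change was 0.31 with a standard error of 0.058 (1.24-fold, adjusted p = 0.00231). Psmc2, an ATPase of the base ring, scored 61.3, 55.6 and 56.1 without drug and 75.0, 72.8 and 71.7 with it, a log2 fold change of 0.34 ± 0.089 (SE, adjusted p = 0.0127). Psmd14 encodes the deubiquitinating enzyme that strips ubiquitin chains from the substrate. Its scores were 45.5, 41.9 and 44.5 in controls and 58.8, 54.6 and 50.8 in treated cells (log2 fold change 0.31 ± 0.084, SE, adjusted p = 0.015). Psmd7, the catalytically inactive partner of Psmd14, moved less, from 58.1, 56.6 and 58.4 to 65.5, 67.8 and 62.7 (log2 fold change 0.18 ± 0.059, SE, adjusted p = 0.0381). Psmd6, another lid subunit, rose from 109.8, 95.9 and 103.9 to 137.3, 133.1 and 121.6 (log2 fold change 0.34 ± 0.099, SE, adjusted p = 0.0224). For each of these 5 genes the control and treated hair cell groups did not overlap. Leaving out 1 replicate at a time, Psmd12 passed the test in 6 of 6 fits, Psmc2 in 5, Psmd14 in 4, Psmd6 in 2 and Psmd7 in 1, and without control replicate 2 only Psmd12 of the 48 genes passed. In non-hair cells the log2 fold changes of Psmd12, Psmc2, Psmd14, Psmd7 and Psmd6 were 0.12, 0.19, 0.29, 0.24 and 0.3. None of these passed, but all but Psmc2 had treated replicates above the controls there too.

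**Figure D1:**
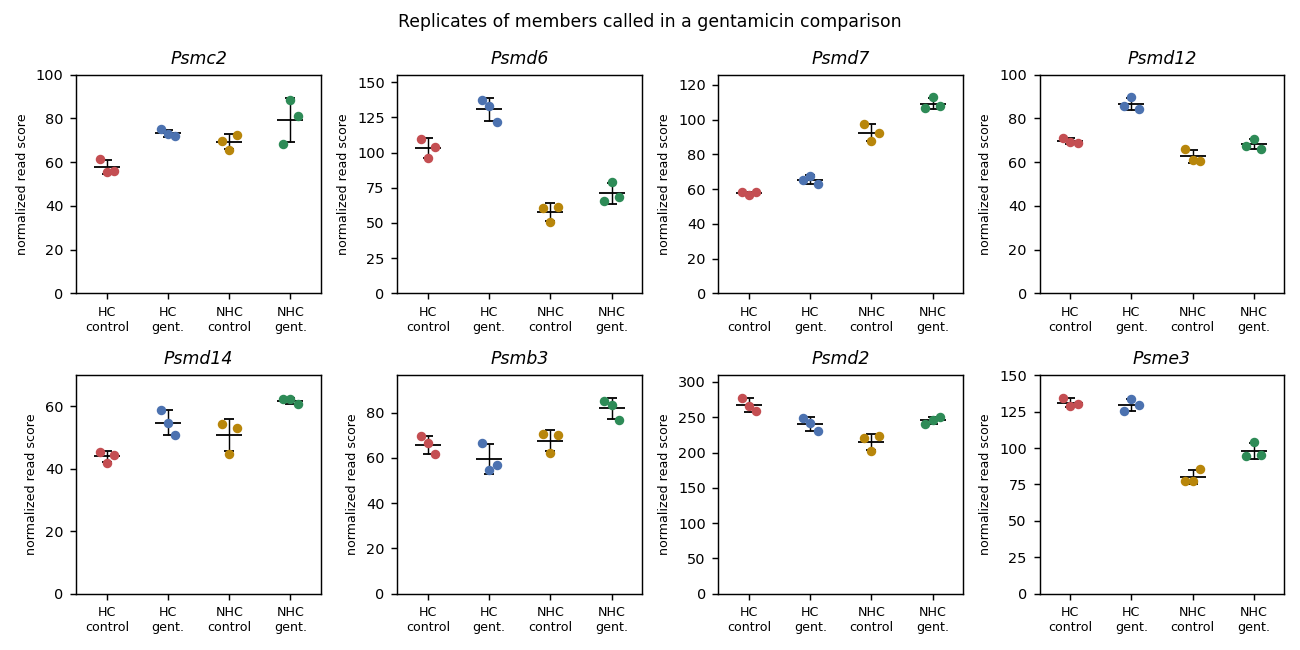
Normalized read score (y axis, from 0) of 8 proteasome genes in each replicate (points) of the 4 groups on the x axis, with the group mean and ±1 SD (n = 3, black bars), where HC are hair cells and NHC non-hair cells. In Psmc2, Psmd6, Psmd7, Psmd12 and Psmd14 the 3 treated hair cell replicates lie above the 3 controls. The treated non-hair cell replicates also lie above theirs in Psmd6, Psmd7, Psmd12 and Psmd14, but not in Psmc2. In Psmb3, Psmd2 and Psme3 the treated non-hair cell replicates lie above theirs and the hair cell replicates do not rise.

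The promoters of the members that rose together are shown so that their letters can be compared. Of the 5, RefSeq promoter windows (build GRCm38.p6, the mm10 assembly) were at hand for Psmd12, Psmd14, Psmd6 and Psmc2, and Psmb8, the immunoproteasome subunit that differed most between the populations, is printed for contrast. Each line gives the 250 bases before the start of transcription by RefSeq, 5′ to 3′ on the strand of the gene, at chr11:107479278-107479527 (+) for Psmd12, chr2:61711444-61711693 (+) for Psmd14, chr14:14120946-14121195 (-) for Psmd6, chr5:21785025-21785274 (+) for Psmc2 and chr17:34197945-34198194 (+) for Psmb8. Gene positions elsewhere in the text are those of GENCODE, whose starts can differ. By GENCODE the Psmb8 line lies wholly inside the gene (chr17:34197721-34201454). The lines of Psmd12 and Psmd6 run into theirs, which start at chr11:107479484 and chr14:14120984. Capitals mark matches, on either strand, to 4 motifs described after the sequences.
Psmd12: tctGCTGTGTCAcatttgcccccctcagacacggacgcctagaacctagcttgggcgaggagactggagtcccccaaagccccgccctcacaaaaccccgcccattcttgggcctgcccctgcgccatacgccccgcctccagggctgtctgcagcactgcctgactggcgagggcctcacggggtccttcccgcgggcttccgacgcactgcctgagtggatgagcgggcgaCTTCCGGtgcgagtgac
Psmd14: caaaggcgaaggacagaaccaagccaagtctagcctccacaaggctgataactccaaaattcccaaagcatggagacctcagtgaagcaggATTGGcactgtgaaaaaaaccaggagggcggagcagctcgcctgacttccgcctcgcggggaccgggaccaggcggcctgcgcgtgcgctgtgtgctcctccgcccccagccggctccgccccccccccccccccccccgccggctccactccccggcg
Psmd6: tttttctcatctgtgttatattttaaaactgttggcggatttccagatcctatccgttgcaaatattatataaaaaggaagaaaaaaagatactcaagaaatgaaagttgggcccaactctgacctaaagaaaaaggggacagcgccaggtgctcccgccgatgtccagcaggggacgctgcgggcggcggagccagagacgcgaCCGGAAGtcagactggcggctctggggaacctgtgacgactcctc
Psmc2: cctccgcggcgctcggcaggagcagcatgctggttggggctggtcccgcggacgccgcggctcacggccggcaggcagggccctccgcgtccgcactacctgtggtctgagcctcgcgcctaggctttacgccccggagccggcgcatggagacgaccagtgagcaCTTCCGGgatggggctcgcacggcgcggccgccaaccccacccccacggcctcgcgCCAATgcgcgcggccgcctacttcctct
Psmb8: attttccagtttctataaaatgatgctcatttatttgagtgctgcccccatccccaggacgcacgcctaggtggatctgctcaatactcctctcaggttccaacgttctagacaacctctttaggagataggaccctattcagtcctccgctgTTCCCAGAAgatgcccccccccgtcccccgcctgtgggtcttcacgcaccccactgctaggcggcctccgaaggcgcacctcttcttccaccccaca

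The capitals are the ETS site CCGGAAG (17 bases before the start in Psmd12, 45 in Psmd6 and 84 in Psmc2), the CCAAT box (159 bases before the start in Psmd14 and 28 in Psmc2), the core of the antioxidant response element TGACNNNGC (247 bases before the start in Psmd12) and the gamma-activated site TTCNNNGAA (97 bases before the start in Psmb8). A search on both strands, in windows running from 250 bases before to 50 bases after the start, covered 44 windows of 41 of the 49 genes and 32851 windows of all genes. The ETS site was in 16 of the 44 windows (36.4%) against 8.86% of all windows. It was in those of Psmc1, Psmc2, Psmc6, Psmd2, Psmd4, Psmd6, Psmd11, Psmd12 and Psmd13 among the genes of the regulatory particle, of which only Psmc2, Psmd6 and Psmd12 rose. The CCAAT box was in 34.1% of the windows of the set and 37.4% of all windows, and the antioxidant response element core in 13.6% and 12.4%. The other shares, of the set and of all windows, were 15.9% and 8.56% for the interferon regulatory factor site GAAANNGAA, 6.82% and 8.3% for the gamma-activated site, 20.5% and 18.6% for the kappa-B site GGGANNNCC, 9.09% and 7.15% for the E-box CACGTG, and 0.0% and 1.79% for the cAMP response element TGACGTCA. The 8 motifs and the 4 in capitals were picked after the expression values were known, overlapping windows of a gene were counted separately, and a match of letters is a description and no evidence of binding.

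The core of the proteasome did not follow the regulatory particle in hair cells. The log2 fold changes of the 14 core genes ran from -0.24 to 0.1 with a median of -0.05, while those of the 17 regulatory particle genes ran from -0.15 to 0.34 with a median of 0.07, beside -0.09 for all tested genes. Of the regulatory particle, the 11 non-ATPases had a median of 0.18 and the 6 ATPases one of 0.05. Scaled by total reads instead of the deposited scaling, 12 proteasome genes rose and 0 fell, against 19.8% and 12.2% of all tested genes, with 8 of the 12 in the regulatory particle, 3 among the chaperones and 0 in the core, and the core median turned to 0.05. Psmb1, the core gene with the largest change, scored 147.1, 133.4 and 132.6 in controls and 128.2, 112.2 and 110.3 in treated hair cells. Its groups did not overlap, but its log2 fold change of -0.24 ± 0.1 (SE) did not pass (adjusted p = 0.0917). It was called lower with the 2 hair cell groups fitted alone and with the replicate block, the only core gene called in hair cells under any setting tried. In 3 core genes (Psma2, Psmb1 and Psmb4) all treated replicates lay below all controls and in none did they lie above. In the regulatory particle 8 genes lay above and 2 below, the latter being Psmd2 and Psmd4. Over the 48 genes, 12 lay wholly above and 7 wholly below (25.0% and 14.6%), against 21.7% and 33.1% of all tested genes. The log2 fold change was positive in 23 of 48 proteasome genes (47.9%), against 40.1% of all tested genes.

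**Figure D2:**
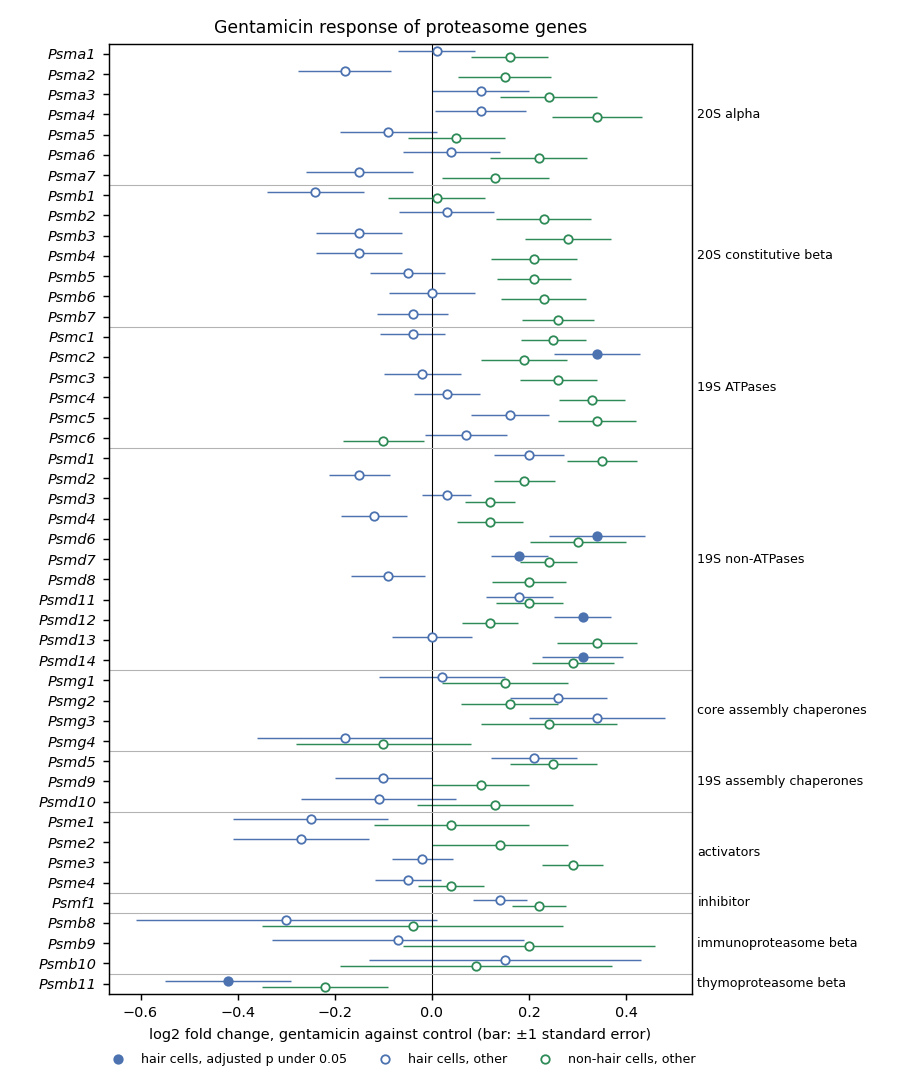
Log2 fold change with gentamicin (x axis) of each tested proteasome gene (y axis, grouped by role) in hair cells and non-hair cells, with bars of ±1 standard error, where filled points passed at an adjusted p under 0.05. The filled points are 5 genes of the regulatory particle and Psmb11, and 43 of the 47 genes drawn lie right of 0 in non-hair cells. Psmc3ip is not drawn.

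The difference between the core and the non-ATPases, which are only a part of the regulatory particle, can be read within each replicate. The 6 ATPases are left out of it, and their mean log2 score overlapped in hair cells (6.54–6.67 without and 6.66–6.74 with drug). The mean log2 score of the 11 non-ATPases minus that of the 14 core genes came to -0.06, -0.05 and -0.04 in untreated hair cells and to 0.02, 0.16 and 0.16 in treated ones. The groups did not overlap, although treated replicate 1 lay close to the controls. In non-hair cells the same difference was -0.18, -0.01 and -0.04 in controls and -0.11, -0.06 and 0.03 with drug, and there the groups overlapped.

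**Figure D3:**
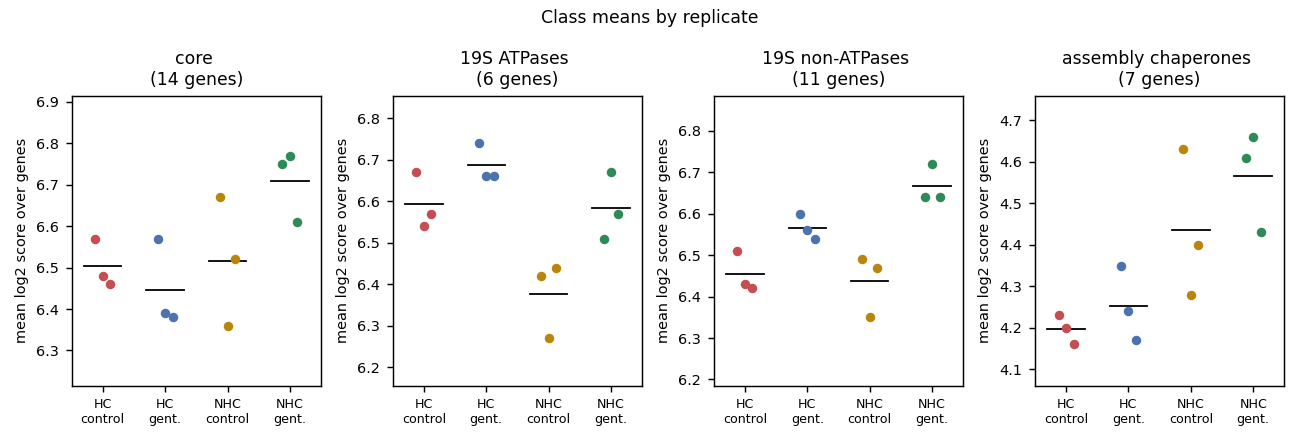
Mean log2 score over the genes of a class (y axis, each panel spanning 0.7 log2 units) in each replicate (points) of the 4 groups on the x axis, with a line at the mean of the 3 replicates. HC are hair cells and NHC non-hair cells. The non-ATPases go from 6.42–6.51 to 6.54–6.6 in hair cells and from 6.35–6.49 to 6.64–6.72 in non-hair cells, while the core spans 6.46–6.57 without and 6.38–6.57 with drug in hair cells.

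Assembly chaperones scored low, and none of the 7 passed the test with the drug in hair cells. Their log2 fold changes ran from -0.18 to 0.34 with a median of 0.02, and a median of 0.11 was found after scaling by total reads. Psmg3, part of a dimer that starts assembly of the alpha ring, scored 14.9, 13.2 and 13.2 in controls and 16.6, 17.3 and 18.2 with drug (log2 fold change 0.34 ± 0.14, SE, adjusted p = 0.0815). Psmg2, which pairs with Psmg1 in another such dimer, scored 14.6, 16.8 and 16.7 and then 19.4, 19.3 and 18.7 (0.26 ± 0.1, SE, adjusted p = 0.0678). In both genes the treated replicates lay above the controls, but neither passed the test. Psmd5, a chaperone of the ATPase ring, scored 43.7, 41.8 and 42.8 and then 50.1, 51.7 and 47.1, again without overlap (0.21 ± 0.089, SE, adjusted p = 0.0868). Psmd5, Psmg2 and Psmg3 were the 3 chaperones that passed under scaling by total reads. Their log2 fold changes were above the 0.18 of Psmd7, which passed, but their standard errors were larger than its 0.059. Of the 7 chaperones, 3 lay wholly above the controls (42.9%) and 0 below, against 21.7% and 33.1% of all tested genes. The groups of Psmg1, Psmg4, Psmd9 and Psmd10 overlapped, with log2 fold changes of 0.02, -0.18, -0.1 and -0.11.

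Psmb11, known as the catalytic subunit of the thymoproteasome of thymic cortical epithelium, was the 1 gene that fell in hair cells. Its scores were low throughout, at 4.46, 4.73 and 5.48 in controls and 4.0, 3.76 and 3.2 with gentamicin, and the groups did not overlap. The log2 fold change was -0.42 ± 0.13 (SE, adjusted p = 0.0316), and it no longer passed after scaling by total reads, with an offset of 0.1 in place of 1, or in 4 of 6 fits without 1 replicate. The gene lies on chromosome 14, where the annotated Psmb11 (chr14:54621433-54629556) follows Psmb5 (chr14:54614119-54618022). None of the 4 activators passed in hair cells, although the treated replicates of Psme2 (24.5, 19.7 and 21.1) all lay below its controls (26.3, 26.4 and 25.9). Psme1 and Psme2, the interferon-inducible pair that forms PA28 alpha-beta, had log2 fold changes of -0.25 ± 0.16 and -0.27 ± 0.14 (SE, adjusted p = 0.234 and 0.166), and Psme3 and Psme4, the nuclear activators PA28 gamma and PA200, had -0.02 ± 0.063 and -0.05 ± 0.068, which turned to 0.08 and 0.04 with scaling by total reads. The inhibitor Psmf1 scored 64.8, 63.1 and 62.3 in controls and 69.5, 70.9 and 69.7 with drug, without overlap, but did not pass (0.14 ± 0.056, SE, adjusted p = 0.0719).

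Markers of other cell types shifted in the same hair cell samples. Of the supporting cell markers Hes5 and Lfng fell (2 of 6, against 18.4% of all tested genes), and the summed score of that list went from 833.0–951.8 without to 391.8–732.4 with gentamicin. Sox2, Fgfr3, Prox1 and Slc1a3 did not pass. The study names Hes5 as a Notch target, and the part of Notch signaling in its fall was not tested. Pecam1 and Cdh5 of 5 endothelial markers fell (summed 12.3–21.1, then 6.6–11.5), as did Col3a1 of 4 mesenchymal markers (110.6–279.7, then 63.3–91.0) and Sox10 of 4 Schwann cell markers (193.2–230.3, then 96.6–164.7). None of 6 macrophage markers (3.36–4.39, then 4.12–5.53) and none of the 6 hair cell markers (10552.1–10983.7, then 8843.1–9906.5) passed the test. No marker of these lists was at 0 in any hair cell replicate. The part of these shifts in the changes of proteasome genes was not tested.

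Genes that work with the proteasome but fall outside the symbol rule were examined by fixed lists. Of 10 further proteasome subunits and associated factors, 4 rose in hair cells (40.0%) and none fell, against 14.8% and 18.4% of all tested genes. Ube3c, a ubiquitin ligase bound to the proteasome, scored 157.2, 153.3 and 159.5 without and 204.8, 216.3 and 211.1 with gentamicin (log2 fold change 0.43 ± 0.054, SE, adjusted p = 0.000256), a larger change than that of any of the 48 genes that passed upward. In non-hair cells its log2 fold change was 0.00, and the difference between the responses passed the test (0.43 ± 0.077, SE, adjusted p = 0.00671). Usp14, a deubiquitinating enzyme of the regulatory particle, and Txnl1, a thioredoxin-like protein bound to it, rose by 0.26 and 0.21 on the log2 scale, and Zfand5 rose by 0.21. Pomp, the maturation protein of the core, did not pass (-0.06 ± 0.072, SE, adjusted p = 0.584).

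Among 6 regulators of proteasome genes, 2 rose and 1 fell in hair cells (33.3% and 16.7%), against 14.8% and 18.4% of all tested genes. Nfyb and Nfyc, subunits of the CCAAT-binding factor NF-Y, rose by 0.77 and 0.71 on the log2 scale (adjusted p = 0.000263 and 0.000423), and Nfyb scored 26.3, 24.9 and 25.3 without and 45.4, 44.6 and 40.8 with drug. The third NF-Y subunit, Nfya, did not pass (-0.27 ± 0.12, SE, adjusted p = 0.0986). Nfe2l1 encodes the transcription factor known to raise proteasome genes when the proteasome is impaired, and its scores were 257.3, 256.6 and 260.1 in controls and 205.7, 199.6 and 242.5 with gentamicin. The treated values were all lower, but the log2 fold change of -0.26 ± 0.11 (SE) did not pass (adjusted p = 0.0905). Ddi2, the protease that activates the Nfe2l1 protein, fell by 0.33 on the log2 scale (adjusted p = 0.0072), and its response differed from that in non-hair cells (-0.42 ± 0.11, SE, adjusted p = 0.0264). In a list of ubiquitin genes and shuttle or segregase factors, of which only some are described, Rad23b and Ufd1l rose in hair cells. Rad23b, a shuttle that carries tagged proteins to the proteasome, rose by 0.40 on the log2 scale. The log2 fold change of Ubb was -0.1 ± 0.14 (SE) and did not pass (adjusted p = 0.6).

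In non-hair cells none of the 48 proteasome genes passed the test with gentamicin, and the lowest adjusted p was 0.065 for Psmd1. Few genes of any kind did, as 0.342% of all tested genes passed. Without adjustment, 25 of the 48 proteasome genes had a p under 0.05, against 17.1% of all tested genes, and 44 of 48 log2 fold changes were above 0 (91.7%), against 48.8%. Leaving out Psmc3ip, these counts were 24 and 43 of 47. By the unadjusted p under 0.01 and fold change above 1.2 that the study used as its criteria, 8 of the 48 rose and 0 fell, against 3.18% of all tested genes rising. These were Psma4, Psmb3, Psmc4, Psmc5, Psmd1, Psmd13, Psmd14 and Psme3. The genes of the set share 3 control and 3 treated samples and moved together in them, so these counts are not independent observations.

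Log2 fold changes above 0 in non-hair cells were found in the core as well as the regulatory particle. Median log2 fold changes were 0.22 in the core, 0.24 in the regulatory particle and 0.15 in the assembly chaperones, beside -0.01 over all tested genes. All 14 core genes were above 0, from 0.01 for Psmb1 to 0.34 for Psma4. All 3 treated replicates lay above all 3 controls in 22 of the 48 genes (45.8%), against 10.1% of all tested genes, and these included 11 of 11 non-ATPases, 4 of 6 ATPases, 4 of 14 core genes and 0 of 7 chaperones. Psmd1, a scaffold of the base of the regulatory particle, scored 114.4, 113.9 and 136.3 in controls and 151.2, 157.6 and 154.5 with drug (log2 fold change 0.35 ± 0.072, SE). Psmd13, a lid subunit, scored 67.6, 63.5 and 62.4 and then 78.3, 89.2 and 77.2 (0.34 ± 0.082, SE, adjusted p = 0.0935). In contrast to these, Psmc6 scored 98.2, 84.2 and 90.6 without and 90.2, 84.4 and 79.6 with gentamicin, and its groups overlapped. Control replicate 2 had the lowest class means of the non-hair cells, and without it the core median was 0.14 and that of the regulatory particle 0.19. Psmd1 passed the test in non-hair cells when control replicate 3 was left out.

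The responses of the 2 populations differed in 3 proteasome genes, each lower in hair cells than in non-hair cells. Psmb3, a non-catalytic beta subunit, scored 69.6, 66.5 and 61.7 in control and 66.8, 54.5 and 57.1 in treated hair cells, which overlap, and 70.7, 62.2 and 70.0 and then 85.3, 83.6 and 76.8 in non-hair cells, which do not. The difference of its log2 fold changes was -0.43 ± 0.13 (SE, adjusted p = 0.0455). Psmd2, the scaffold that binds ubiquitin shuttles, went from 277.7, 265.2 and 259.2 to 249.4, 241.2 and 230.3 in hair cells without passing there (-0.15 ± 0.063, SE, adjusted p = 0.0807), and in non-hair cells it went from 220.3, 202.0 and 222.7 to 239.7, 246.6 and 250.3. The difference was -0.35 ± 0.089 (SE, adjusted p = 0.0277). Psme3 scored 134.5, 128.7 and 130.4 and then 125.3, 133.9 and 129.7 in hair cells, and 77.5, 77.6 and 85.7 and then 94.5, 104.0 and 95.2 in non-hair cells, with a difference of -0.3 ± 0.089 (SE, adjusted p = 0.0448). Among all tested genes 6.85% responded more and 6.57% less in hair cells, against 0 and 6.25% of the proteasome genes. The difference was above 0 in 8 of 48 genes and in 0 of 14 core genes, against 42.8% of all tested genes, while the 5 genes that rose in hair cells had differences of -0.06 to 0.19, none of which passed. Scaling by total reads took all 3 calls away and left 1 other, Psmd12, as higher in hair cells, and leaving out single replicates gave 0 to 3 calls, with 0 without hair cell control replicate 1 or 2, treated hair cell replicate 2, non-hair cell control replicate 2 or treated non-hair cell replicate 2.

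Without drug, the 2 populations differed in 28 of 48 proteasome genes, of which 13 were higher and 15 lower in hair cells. The largest differences lay outside the standard particle, in the immunoproteasome and the activators. Among all tested genes 31.9% were higher and 42.2% lower in hair cells, against 27.1% and 31.2% of the proteasome genes. Scaling by the median of gene ratios gave 18 higher and 9 lower, since it moved the median of all genes by 0.11, and 22 of the 28 genes were called under both. In the core 2 genes were higher and 2 lower, with a median log2 difference of -0.06 that turned to 0.07 under that scaling. In the regulatory particle 6 were higher and 4 lower, with a median of 0.01.

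**Figure D4:**
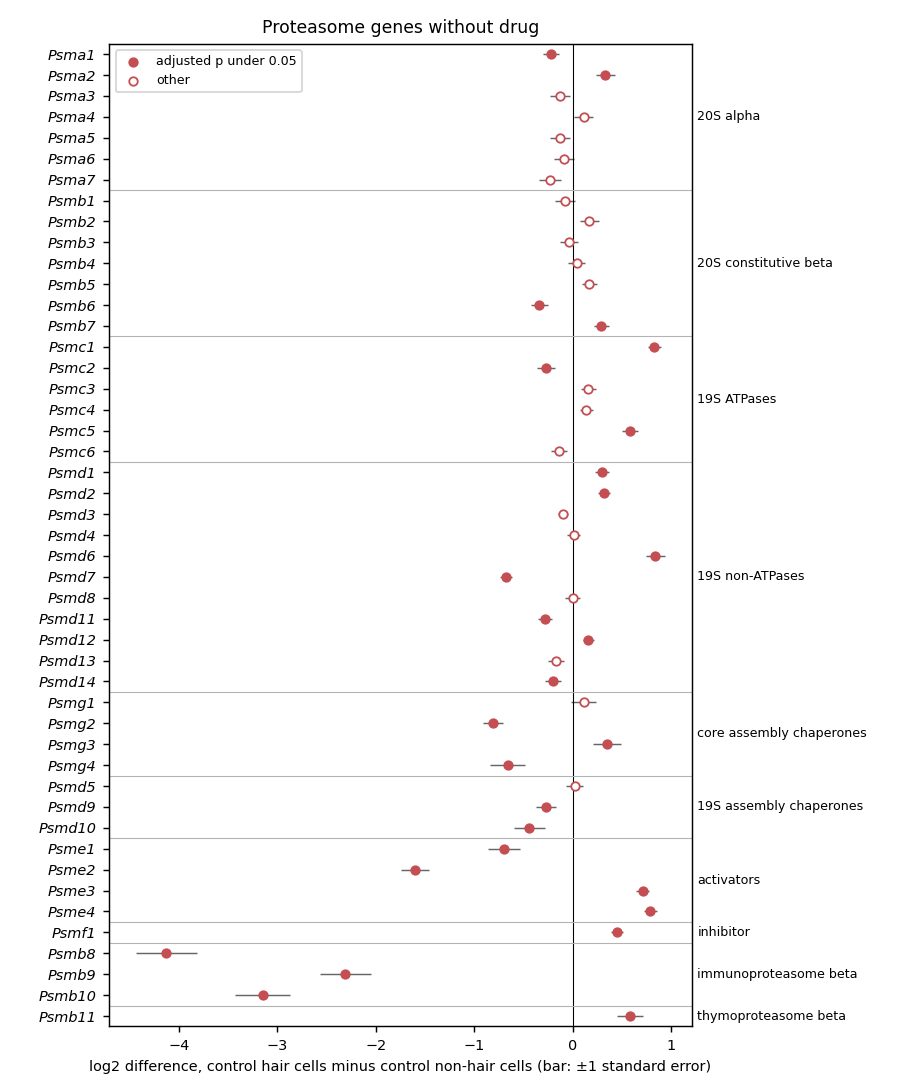
Log2 score in untreated hair cells minus that in untreated non-hair cells (x axis) of each tested proteasome gene (y axis, grouped by role), with bars of ±1 standard error, where filled points passed at an adjusted p under 0.05. The core and the regulatory particle lie between -0.68 and 0.84, and the immunoproteasome subunits between -4.13 and -2.31. Psmc3ip is not drawn.

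Subunits of one particle did not share one ratio between the populations. Psmd6 scored 109.8, 95.9 and 103.9 in hair cells and 60.9, 50.4 and 61.7 in non-hair cells, a log2 difference of 0.84 ± 0.099 (SE, adjusted p = 1.12e-05). Psmc1, an ATPase, scored 171.1, 157.1 and 152.8 against 93.8, 84.3 and 92.5 (0.83 ± 0.067, SE, adjusted p = 4.48e-07), and Psmc5, another ATPase, was higher by 0.58. Psmd7 went the other way, with 58.1, 56.6 and 58.4 in hair cells and 97.6, 87.7 and 92.1 in non-hair cells (-0.68 ± 0.059, SE, adjusted p = 8.68e-07). None of these groups overlapped. Of the genes that rose with gentamicin in hair cells, Psmd6 and Psmd12 were thus already higher in hair cells and Psmc2, Psmd7 and Psmd14 lower, but some of these calls were lost under other settings. Psmc2 and Psmd14 no longer passed under scaling by the median of gene ratios, and Psmd12 and Psmd14 with the 2 groups fitted alone. Of 6 fits that each left out 1 replicate, Psmc2 passed in 3 and Psmd12 and Psmd14 in 1 each. The core was closer to balance, from -0.34 for Psmb6 to 0.33 for Psma2.

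Activators and chaperones each held genes that were higher and genes that were lower in hair cells. Psme4, which encodes PA200, scored 292.6, 266.3 and 290.0 in hair cells and 157.9, 162.7 and 168.6 in non-hair cells (log2 difference 0.79 ± 0.068, SE, adjusted p = 6.88e-07), and Psme3 was higher by 0.71 ± 0.063 (SE, adjusted p = 1e-06). The inhibitor Psmf1 was higher by 0.45 ± 0.056 (SE, adjusted p = 1.78e-05), and Psmb11 by 0.58 ± 0.13 (SE, adjusted p = 0.00201). Of the assembly chaperones 4 were lower in hair cells, namely Psmg2 (-0.81 ± 0.1), Psmg4 (-0.66 ± 0.18), Psmd10 (-0.44 ± 0.16) and Psmd9 (-0.27 ± 0.1), and 1 was higher, Psmg3 (0.35 ± 0.14, each with its SE). Psmg2 scored 14.6, 16.8 and 16.7 in hair cells and 30.6, 25.3 and 28.6 in non-hair cells, although its partner Psmg1 did not differ by the test (0.11 ± 0.13, SE, adjusted p = 0.464). The share of all tested genes that were lower is 42.2%, and that of higher ones 31.9%, so with 7 chaperones these counts single out nothing. Psmd10 and Psmd9 no longer passed under scaling by the median of gene ratios, and Psmd9 and Psmg3 with the 2 groups fitted alone. Without 1 replicate at a time, Psmd10 and Psmd9 passed in 2 of 6 fits each and Psmg3 in 1.

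The 3 immunoproteasome subunits and the PA28 alpha-beta pair were lower in hair cells. Psmb8, the immunoproteasome counterpart of Psmb5, scored 1.87, 1.77 and 1.46 in control hair cells, close to the floor of 1, and 54.3, 21.2 and 22.8 in untreated non-hair cells, a log2 difference of -4.13 ± 0.31 (SE, adjusted p = 2.2e-07). Psmb10, the counterpart of Psmb7, scored 4.56, 4.76 and 4.96 against 72.9, 31.1 and 32.9 (-3.15 ± 0.28, SE, adjusted p = 8.78e-07), and Psmb9, the counterpart of Psmb6, 1.26, 1.51 and 1.55 against 11.4, 5.24 and 6.1 (-2.31 ± 0.26, SE, adjusted p = 6.56e-06). The replicates of the populations lay far apart for all 3, and with 1 added to each score these values understate the fold. Psme2 scored 26.3, 26.4 and 25.9 against 102.1, 66.6 and 73.8 (-1.6 ± 0.14, SE, adjusted p = 1.1e-06), and Psme1 was lower by a smaller step (-0.7 ± 0.16, SE, adjusted p = 0.0016). Psmb8 (chr17:34197721-34201454) and Psmb9 (chr17:34181987-34187764) are neighbours in the major histocompatibility complex, where Psmb9 overlaps Tap1, and Psme1 and Psme2 are neighbours on chromosome 14.

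**Figure D5:**
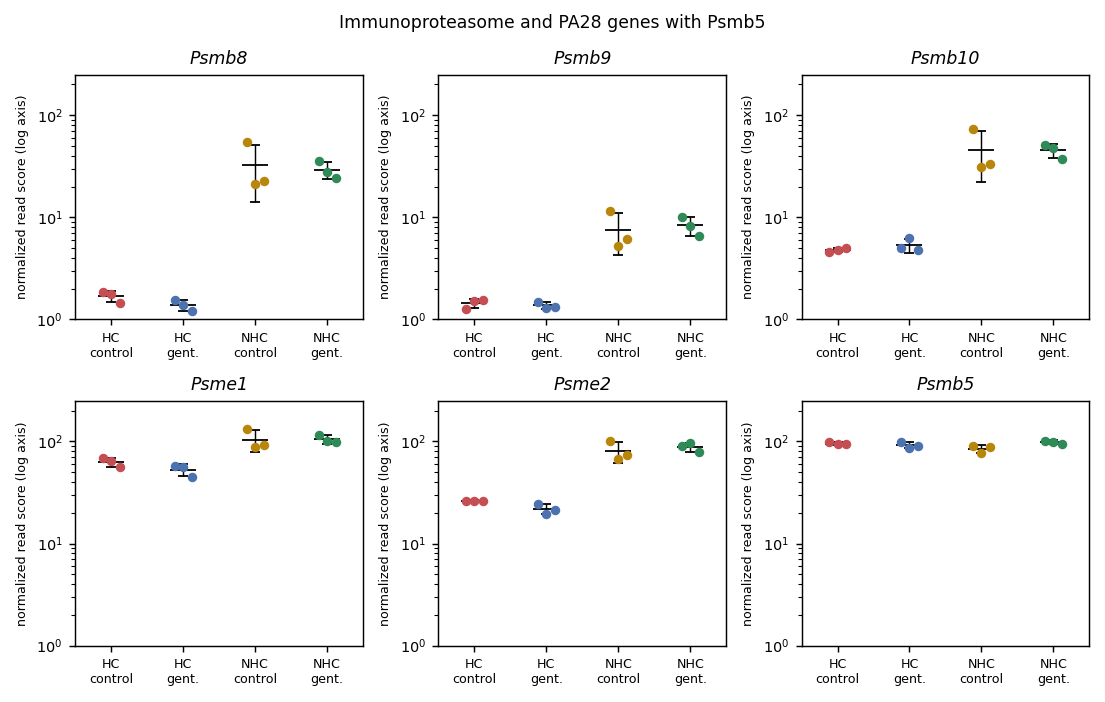
Normalized read score (log axis) of the immunoproteasome genes Psmb8, Psmb9 and Psmb10, the PA28 genes Psme1 and Psme2 and the constitutive Psmb5 in each replicate (points) of the 4 groups on the x axis, with the group mean and ±1 SD (n = 3, black bars), where HC are hair cells and NHC non-hair cells. Psmb8 lies between 1.21 and 1.87 in hair cells and between 21.2 and 54.3 in non-hair cells, whereas Psmb5 spans 76.5 to 101.8 over all groups.

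Set against its constitutive counterpart per length, the immunoproteasome made up a small share in hair cells. Psmb8 was 0.271–0.49% of Psmb8 plus Psmb5 in control hair cells and 12.1–24.7% in control non-hair cells. The shares were 0.196–0.434% and 2.83–5.44% for Psmb9 with Psmb6, and 3.16–3.84% and 26.2–44.1% for Psmb10 with Psmb7. Gentamicin left these shares at 0.131–0.301%, 0.248–0.361% and 3.55–4.96% in hair cells and at 12.1–16.0%, 3.06–4.55% and 26.6–32.9% in non-hair cells, with overlap between control and treated groups in each case. No immunoproteasome gene passed the test with gentamicin in either population. Psmb8 had a log2 fold change of -0.3 ± 0.31 in hair cells and -0.04 ± 0.31 in non-hair cells, Psmb9 -0.07 ± 0.26 and 0.2 ± 0.26, and Psmb10 0.15 ± 0.28 and 0.09 ± 0.28 (SE). These intervals are wide, and the non-hair cell values rest on control replicate 1, without which the log2 fold change of Psmb8 was 0.4.

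That replicate held the highest scores of Psmb8, Psmb9, Psmb10, Psme1 and Psme2 among the control non-hair cells. It was also highest in the sum of 10 genes of the interferon response and antigen processing (1637.9, against 1058.9 and 1239.1 in the other control replicates), and lowest in the sum of 6 macrophage markers (24.6, against 44.6 and 31.0). Of all tested genes 42.2% were lower in control hair cells than in control non-hair cells. All 10 interferon genes were lower there, by 1.41 to 4.44 on the log2 scale in size, and so were 6 of 6 macrophage, 5 of 5 endothelial, 4 of 4 mesenchymal and 4 of 4 Schwann cell markers. Supporting cell markers were not, since 1 of 6 was lower (Slc1a3), 1 was higher (Lfng) and their summed score was 833.0–951.8 in control hair cells against 744.2–927.6 in control non-hair cells. The macrophage sums were 3.36–4.39 in control hair cells and 24.6–44.6 in control non-hair cells, and the endothelial ones 12.3–21.1 and 138.3–223.3. The part of these other cells in the immunoproteasome levels of the non-hair cells was not tested. With gentamicin 5 of the 10 interferon genes fell in hair cells, among them H2-D1 (-1.15 ± 0.25, SE, adjusted p = 0.00589), H2-K1 (-0.91 ± 0.25, SE, adjusted p = 0.0157) and B2m (-0.74 ± 0.22, SE, adjusted p = 0.0226), which encode chains of the class I complex that displays the peptides cut by the proteasome, and none passed in non-hair cells.

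Some of these scores may hold reads of other genes. By the annotation, 12 of the 49 genes overlap another protein-coding gene, among them Psma4, Psmd1, Psmd13 and Psmb9, and whether strand was used in counting is not given in the sources used here. Psme2 has a near-identical copy in the mouse genome, Psme2b, which has no row of its own, so its reads are uncertain. Psmc3ip, named for binding to Psmc3, had log2 fold changes of 0.49 ± 0.25 in hair cells and 0.64 ± 0.25 in non-hair cells (SE), and neither passed (adjusted p = 0.154 and 0.229).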

How the data were processed

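Per the submitters' processing notes, reads of the mRNA-seq libraries were processed with TopHat2 and mm10. The authors deposited a score for each gene and replicate, named RPKM in the methods. The deposited scores hold no division by gene length: less the added 1, 82.9–83.9% of low values were whole multiples of 1 step per replicate (tolerance 0.1), too few for a count test. Each of the 4 tables holds 3 replicates as columns, 12 in all. Whether replicates came from separate animals is not in the labels, so p-values measure the spread between these replicates.

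For 16076 genes, 1 limma model (version 3.58.1, R 4.3.3) over all 4 groups was fitted to the log2 scores, with the prior variance following the mean level, and p-values were adjusted by Benjamini-Hochberg. The procedure was tested on simulated data. Tables were made with Python 3.11.15, pandas 2.3.3 and numpy 2.4.6. Lengths, positions and overlaps came from GENCODE M21 (GRCm38). Same-number control replicates of the populations deviated together (correlations of 0.216, 0.316 and 0.2). The replicate block took same numbers as belonging together in all 4 groups, and so in every comparison. Outside the control replicates the correlations gave little ground for that.

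The genes, classes and lists were chosen with earlier results of these data known. Full values were given for the 5 largest called changes per comparison, for immunoproteasome and thymoproteasome subunits, activators, the inhibitor and chaperones, and in other lists for up to 3 called genes with Nfe2l1, Pomp and Ubb. Nfya, Zfand5, Ufd1l, Psma4, Psmb1, Psmc6, Psmd1 and Psmd13 were named after their values were seen. Paaf1 was not analysed here, and some genes of the ubiquitin list are not reported here.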

Additional observations from a re-analysis of the deposited data

Results flagged for a closer look

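The response to gentamicin differed between hair cells and non-hair cells, by limma's test of the difference itself, in 3 of the 48 proteasome genes. The response in hair cells minus that in non-hair cells was -0.43 on the log2 scale for Psmb3, -0.35 for Psmd2 and -0.3 for Psme3 (adjusted p = 0.0455, 0.0277 and 0.0448). These calls made up 6.25% of the set, against 6.57% of all tested genes called lower, so the set was called about as often as genes at large. Each was called in only part of the 12 fits that left out 1 replicate, Psmd2 in 7 and Psmb3 and Psme3 in 2 each. Scaling by total reads took all 3 calls away.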

How the results depend on the processing

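Scaling by total reads raised the hair cell count from 6 to 12 genes (12 higher, 0 lower) and lowered the count of differing responses from 3 to 1. The median log2 fold changes in hair cells then were 0.05 in the core, 0.16 in the regulatory particle and 0.11 in the chaperones, and those of Psme3 and Psme4 were 0.08 and 0.04, while the control difference of Psmd5 was -0.0. Scaling by the median of gene ratios gave control differences between the populations of 0.07 for the median of the core and 0.13 for that of the regulatory particle. The 2 hair cell groups fitted alone gave 10 calls (8 higher, 2 lower), and the study's criteria gave 8 in non-hair cells. The cause was not tested.

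Without 1 replicate at a time, calls ranged from 1 to 5 in hair cells, from 0 to 1 in non-hair cells, from 0 to 3 for differing responses and from 21 to 27 between the populations. The hair cell medians ranged from -0.09 to -0.01 in the core, from 0.03 to 0.14 in the regulatory particle and from -0.06 to 0.12 in the chaperones, and the non-hair cell median of the chaperones from 0.08 (without control replicate 2) to 0.24. Log2 fold changes in non-hair cells ranged from -0.28 to 0.4 for Psmb8, -0.03 to 0.53 for Psmb9, -0.13 to 0.49 for Psmb10, -0.07 to 0.23 for Psme1 and -0.21 to 0.05 for Psmg4. In hair cells they ranged from -0.04 to 0.01 for Psme3 and -0.06 to 0.12 for Psmg1, and the control difference of Psmd5 from -0.02 to 0.09. With the replicate block, 6 genes were called in hair cells (4 higher, 2 lower), 0 in non-hair cells, 2 for differing responses and 30 between the populations. Only control replicates of the populations clearly deviated together. Between control and treated replicates of the same number, correlations were 0.037, 0.052 and 0.037 in hair cells and 0.208, -0.232 and 0.683 in non-hair cells. Between the 2 treated populations they were 0.377, -0.039 and -0.018. Of single-gene values, 351 kept direction and call without 1 replicate, 71 lost the call and 16 changed direction, while under the other settings 455 kept both, 7 gained and 19 lost the call and 3 changed direction. At this depth the low scores of Psmb9, Psmb11 and Psma8, and of Psmb8 in hair cells, limit what can be seen.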
